A study of Mus musculus with 55 samples.

Results

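The proteasome subunit genes were taken as the rows of the first count table whose symbol is Psm, a letter from a to g, a number and optionally further letters, with the interferon-inducible immunoproteasome genes Psmb8, Psmb9 and Psmb10 left out. The rule found 47 of the 55421 rows, and all 47 symbols were also among the 35976 rows of the second table. By role they were 7 alpha ring subunits, 4 structural and 3 catalytic beta ring subunits, 6 base ATPases, 3 further base subunits, 8 lid subunits, 3 assembly chaperones of the 19S base, 4 assembly chaperones of the 20S core, 6 activators and inhibitors, 2 tissue-restricted core subunits (Psma8 and Psmb11) and Psmc3ip. Psmc3ip encodes a meiotic recombination partner and not a proteasome subunit, and it is a member by its symbol only.

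The 26S proteasome degrades proteins that carry ubiquitin chains. Its 20S core is a barrel of alpha and beta rings with the protease sites inside, and the 19S particle at either end recognises ubiquitin (base and lid), removes it (Psmd14 in the lid) and unfolds the substrate with a ring of ATPases. Assembly needs dedicated chaperones, and PA28 (Psme1, Psme2), PA28 gamma (Psme3) or PA200 (Psme4) can cap the core in place of the 19S particle. Haematopoietic stem cells are known for a low rate of protein synthesis and for sensitivity to unfolded protein. Transcription of the subunits is known to rise together through Nrf1, the product of Nfe2l1, when the proteasome is inhibited.

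RNA was sequenced in 46 libraries of the first table, from mouse bone marrow cells sorted into 6 populations. These were the haematopoietic stem cells with long-term (LT-HSC) and short-term (ST-HSC) repopulation, 3 myeloid progenitors, namely the CMP (common), the GMP (granulocyte and macrophage) and the MEP (megakaryocyte and erythroid), and the CLP as the common lymphoid progenitor, with 22 libraries labelled WT and 24 labelled Tet2 knockout (Tet2-/- below). The WT stem cell groups have 3 libraries each and the other groups 4. In the study's methods the Tet2 alleles are floxed and deleted by Mx1-Cre after poly(I:C), an inducible system that acts in all blood cells and in other interferon-responsive cells. The second table holds 9 LT-HSC libraries, 3 each labelled WT, Sting knockout (a germline deletion, Sting-/- below) and Tet2/Sting double knockout (DKO below). Per the study's methods Cre was induced in young, weeks-old mice and cells were taken months later, and whether the WT mice of these libraries also received poly(I:C) is not stated for this experiment. The labels give about 200 cells for each library, while the study's methods give a higher number per group. The study counts mice as its replicates, but the labels do not say which libraries share a mouse, so p-values measure the spread between libraries. In such bulk samples fewer cells of a type and less RNA per cell cannot be told apart.

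Several checks of the labels bear on what follows. Tet2 counts sum the whole gene, so the loss of an exon could not be seen, and the level did not separate the labels. Tet2 was at 24 CPM (counts per 1000000 counts of the library) ± 12.7 (SD, n = 4) in LT-HSCs labelled Tet2-/- and 13.2 ± 1.69 (SD, n = 3) in WT, and the mean with the Tet2-/- label was higher also in GMPs and CLPs and lower in ST-HSCs, CMPs and MEPs, where the ranges overlapped. In the second table Tet2 counts were 977, 0 and 0 in WT, 498, 1729 and 91 in Sting-/- and 1342, 1433 and 56 in DKO. The DKO label was thus not marked by lower Tet2 counts. Sting counts (Tmem173) were 1788, 1168 and 0 in the WT libraries of the second table, 6333, 0 and 3835 in those labelled Sting-/- and 0, 14 and 1128 in those labelled DKO, so that 3 of 6 libraries labelled as lacking Sting held 1128 counts or more. In the same table Eif2s3y, a Y-linked gene, was at most 0.234 CPM in WT, 157 to 214 CPM in Sting-/- and 275 to 314 CPM in DKO, so genotype and sex cannot be told apart in the comparisons with WT. Depth was 50458473 to 102148079 counts in the first table and 26776517 to 78682096 in the second, with 13754 to 20964 and 9382 to 11528 genes detected. Ighm, the immunoglobulin heavy chain gene of B cells, was at 146000 to 268000 CPM in the WT CLP libraries and 576 to 131000 CPM in those labelled Tet2-/-, and of 6 lymphoid progenitor genes in the WT CLP libraries Il7r was at 373 to 613 CPM, Dntt at 0.83 to 644, Flt3 at 0 to 93.8, Rag2 at 0 to 32, Ebf1 at 0 to 3.19 and Rag1 at 0. The share of counts from mitochondrial genes also differed between WT populations, with 8.73% to 9.02% in ST-HSCs, 5.94% to 6.57% in CMPs, 3.64% to 4.6% in GMPs, 6.85% to 9.18% in MEPs and 2.41% to 4.58% in CLPs, and its part in the steps between them was not tested.

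The members took 0.319% to 1.49% of the counts of a library in the first table. Psma2 and Psma1 of the alpha ring took the largest parts, 5.91% and 5.87% of all member counts, and the top 5 members together 24.6%, so that the summed level was not set by a few genes. Per kilobase of exon, with the exon lengths that the second table gives, most core subunits lay above most subunits of the regulatory particle. In WT LT-HSCs the alpha ring ran from 142 CPM per kb for Psma3 to 642 for Psma2, the structural beta subunits from 311 (Psmb3) to 582 (Psmb2) and the catalytic ones from 260 (Psmb7) to 414 (Psmb6). The base ATPases ran from 84.7 (Psmc5) to 198 (Psmc6) CPM per kb. Which member is highest depends on the length used. With the longer exon unions of the vM21 annotation, an alternative chosen after seeing the data, Psma2 was at 165 CPM per kb and Psma6 was the highest alpha subunit at 381, and the median was 82.9 over the base ATPases and 53 over the lid.

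In the WT LT-HSC libraries, the members at the ends of each range by the second table's lengths were separated in every library. With the vM21 lengths some ends were other members. Among them were Psmc2 (39.6 CPM per kb) and Psmc1 (97.8) for the base ATPases and Psmd1 (14) as the lowest other base subunit. By those lengths Psmb5 (253) was the highest catalytic subunit and Psmg4 (133) the highest core chaperone. Of the alpha ring, Psma3 was at 386, 423 and 356 CPM and Psma2 at 544, 595 and 682 CPM. Of the structural beta subunits, Psmb3 was at 182, 235 and 263 CPM and Psmb2 at 481, 486 and 526 CPM. Of the base ATPases, Psmc5 was at 108, 116 and 101 CPM and Psmc6 at 338, 285 and 306 CPM. These values are per library and not per length, and in each pair the second member lay above the first in all 3 libraries. Of the other base subunits, the scaffold Psmd2 (27.8 CPM per kb) was at 101, 70.6 and 83.1 CPM and the ubiquitin receptor Psmd4 (108 per kb) at 136, 136 and 172 CPM. Of the chaperones of the base, Psmd5 (23.2 per kb) was at 48.2, 39.6 and 54.4 CPM and Psmd10, also known as gankyrin (62 per kb), at 71.7, 111 and 87.8 CPM. Of the chaperones of the core, Psmg3 (42.8 per kb) was at 40.4, 43.6 and 44.7 CPM and Psmg2 (142 per kb) at 129.5, 154 and 167 CPM. Per length, the median was 321 CPM per kb over the alpha ring, 121 over the chaperones of the core and 25 over those of the base, or 165, 82.9 and 8.93 with the vM21 lengths.

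The 8 lid subunits among the members stand in equal numbers in the assembled particle, and their levels per length were widely spread. The small lid subunit Sem1 falls outside the symbol rule and is not in these ratios. Psmd3 of the lid was at 6.2 CPM per kb in WT LT-HSCs and Psmd7 at 172, a ratio of 27.7, or 45.5 with the vM21 lengths. Psmd3 held 10.3, 14.3 and 15.3 CPM and Psmd7 260.1, 294 and 270.2 CPM in the 3 libraries. In WT GMPs the highest of these lid subunits was 3.56 times the lowest, and Psmd3 was no longer the lowest. Among the activators Psme1, the alpha subunit of PA28, was highest at 390 CPM per kb, and Psme4, PA200, lowest at 7.77, a ratio of 50.1, or 26.7 with the vM21 lengths. Psme1 held 383, 372 and 387 CPM and Psme4 48.9, 57.7 and 55.4 CPM. Psma8, the alpha subunit of the testis proteasome, held 23, 27 and 19.7 CPM in the WT LT-HSC libraries, and Psmb11, the catalytic subunit of the thymus, had 1 count over all 46 libraries and 0 in the second table. Psmb11 was not tested in any comparison, and Psma8 was not tested in CLPs between genotypes.

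The start sites of 39 of the 47 members were found in the RefSeq promoter table (build GRCm38.p6), with 42 windows of 300 bases from 250 before to 50 after a start site. The windows of 5 members are shown because these genes were called between the genotype labels or encode catalytic subunits. Psmd3, also called between the labels, and the catalytic Psmb7 had no window there. Other members with a searched motif, such as Psmc6 and Psmd9, are not shown. Psmd5 (chr2:34870913-34871212, minus strand), Psmd8 (chr7:29180624-29180923, minus strand) and Psmd11 (chr11:80428365-80428664, plus strand) differed with the genotype label, and Psmb5 (chr14:54617946-54618245, minus strand) and Psmb6 (chr11:70525107-70525406, plus strand) encode catalytic subunits. The sequences run 5′ to 3′ on the strand of the gene. Capitals mark TCTCGCGAGA in Psmd5, which starts 72 and 26 bases before the start site, and TGACNNNGC, the core of an antioxidant-type element, in Psmb5 and Psmb6, which starts 47 and 9 bases before it.
Psmd5: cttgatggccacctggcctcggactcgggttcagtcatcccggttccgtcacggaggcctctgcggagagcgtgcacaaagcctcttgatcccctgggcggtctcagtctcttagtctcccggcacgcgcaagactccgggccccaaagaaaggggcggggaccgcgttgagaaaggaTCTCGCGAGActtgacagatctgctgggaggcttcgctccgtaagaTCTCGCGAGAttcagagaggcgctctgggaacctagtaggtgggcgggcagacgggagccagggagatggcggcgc
Psmd8: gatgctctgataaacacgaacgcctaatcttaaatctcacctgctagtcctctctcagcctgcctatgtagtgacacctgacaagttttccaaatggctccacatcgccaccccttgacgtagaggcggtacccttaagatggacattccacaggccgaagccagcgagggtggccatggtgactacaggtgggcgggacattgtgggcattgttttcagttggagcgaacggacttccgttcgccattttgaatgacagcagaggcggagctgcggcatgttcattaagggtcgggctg
Psmd11: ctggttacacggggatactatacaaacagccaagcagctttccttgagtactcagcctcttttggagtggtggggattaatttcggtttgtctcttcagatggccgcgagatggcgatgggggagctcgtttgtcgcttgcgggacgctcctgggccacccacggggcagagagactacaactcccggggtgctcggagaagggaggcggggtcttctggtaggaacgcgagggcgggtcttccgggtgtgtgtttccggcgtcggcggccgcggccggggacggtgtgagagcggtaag
Psmb5: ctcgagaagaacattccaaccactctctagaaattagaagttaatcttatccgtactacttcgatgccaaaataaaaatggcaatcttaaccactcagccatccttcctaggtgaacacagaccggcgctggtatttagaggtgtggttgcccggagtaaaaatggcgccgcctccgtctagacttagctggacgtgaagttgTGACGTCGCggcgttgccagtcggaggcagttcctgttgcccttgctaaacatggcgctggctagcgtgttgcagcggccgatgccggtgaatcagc
Psmb6: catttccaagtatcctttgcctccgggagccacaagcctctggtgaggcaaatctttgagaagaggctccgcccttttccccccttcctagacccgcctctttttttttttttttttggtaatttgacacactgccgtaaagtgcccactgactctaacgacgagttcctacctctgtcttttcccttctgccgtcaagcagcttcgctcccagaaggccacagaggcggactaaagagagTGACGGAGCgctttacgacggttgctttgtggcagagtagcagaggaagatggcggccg
TGACNNNGC on either strand was in 6 of the 42 member windows (14.3%) and in 12.4% of all 32851 windows of the table, and CCAAT in 33.3% and 37.4%. TCTCGCGAGA, a palindrome chosen for the search after the Psmd5 sequence was seen, was in 1 member window (2.38%) and in 0.466% of all windows. These are matches of letters and not binding sites.

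Across the 6 WT populations the summed level of the members was highest in MEPs and lowest in CLPs. MEPs held 13106 CPM ± 373 (SD, n = 4), LT-HSCs 9970 ± 692 (SD, n = 3), CMPs 9236 ± 540 (SD, n = 4), ST-HSCs 9030 ± 250 (SD, n = 3), GMPs 8019 ± 442 (SD, n = 4) and CLPs 5995 ± 780 (SD, n = 4). The MEP libraries, at 12658 to 13569 CPM, lay above every library of the other WT populations, and the CLP libraries, at 5390 to 7129, below them. LT-HSC (9505 to 10766), CMP (8597 to 9911) and ST-HSC (8781 to 9280) were neighbours in this order, and CMP overlapped with both. The GMP libraries, at 7546 to 8403, lay below those 3 populations.

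**Figure D1:**
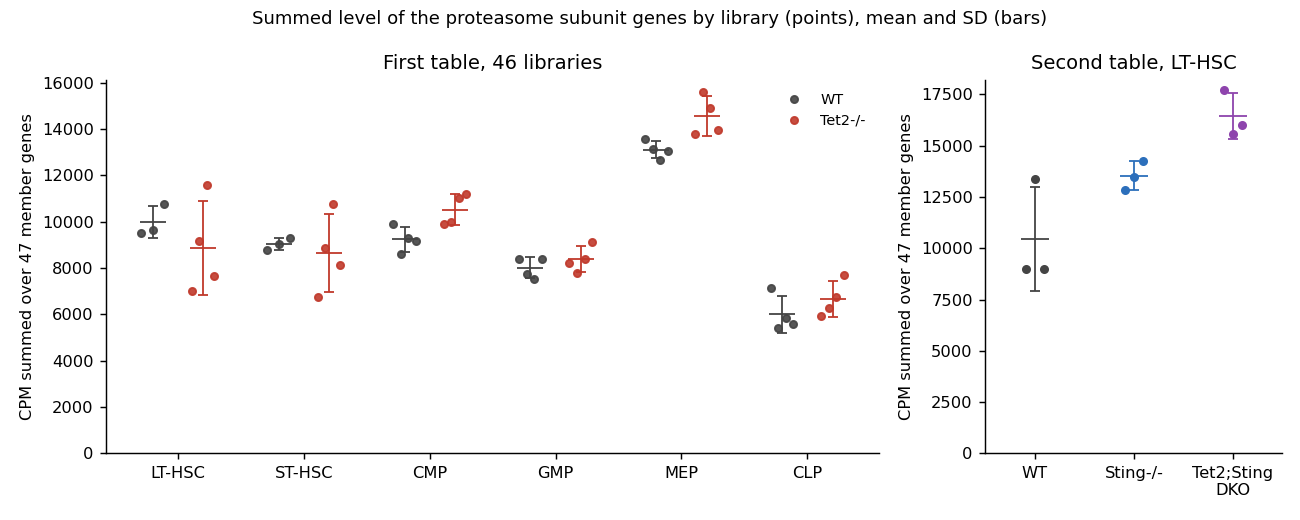
Summed CPM of the 47 member genes (y axis) for each library (points), by population and genotype label in the first table (left) and by genotype label in LT-HSCs of the second table (right), with mean and SD as bars; the tables were scaled separately and the y axes differ. MEP libraries sit highest in both genotypes and CLP libraries lowest in WT, and the DKO libraries of the second table lie above its other libraries.

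Member by member the pattern was the same for most subunits. Of the 46 members with counts in WT, 36 had their highest mean in MEPs, 5 in LT-HSCs, 1 in ST-HSCs and 4 in GMPs, and 32 had their lowest in CLPs. The 4 with a maximum in GMPs were Psmd1 and Psmd2, the scaffolds of the base, and Psmd3 and Psmd13 of the lid. Those with a maximum in stem cells were Psma4, Psma8, Psmg4, Psme2 and Psme2b (LT-HSC) and Psme1 (ST-HSC). Psme2b is a near-identical copy of Psme2, so reads may be split between them. The highest population was 1.41 times the lowest for Psmd12, 6.79 times for the core chaperone Psmg3 and 10.4 times for Psmd3. In libraries labelled Tet2-/-, 38 members had the same highest population as in WT.

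**Figure D2:**
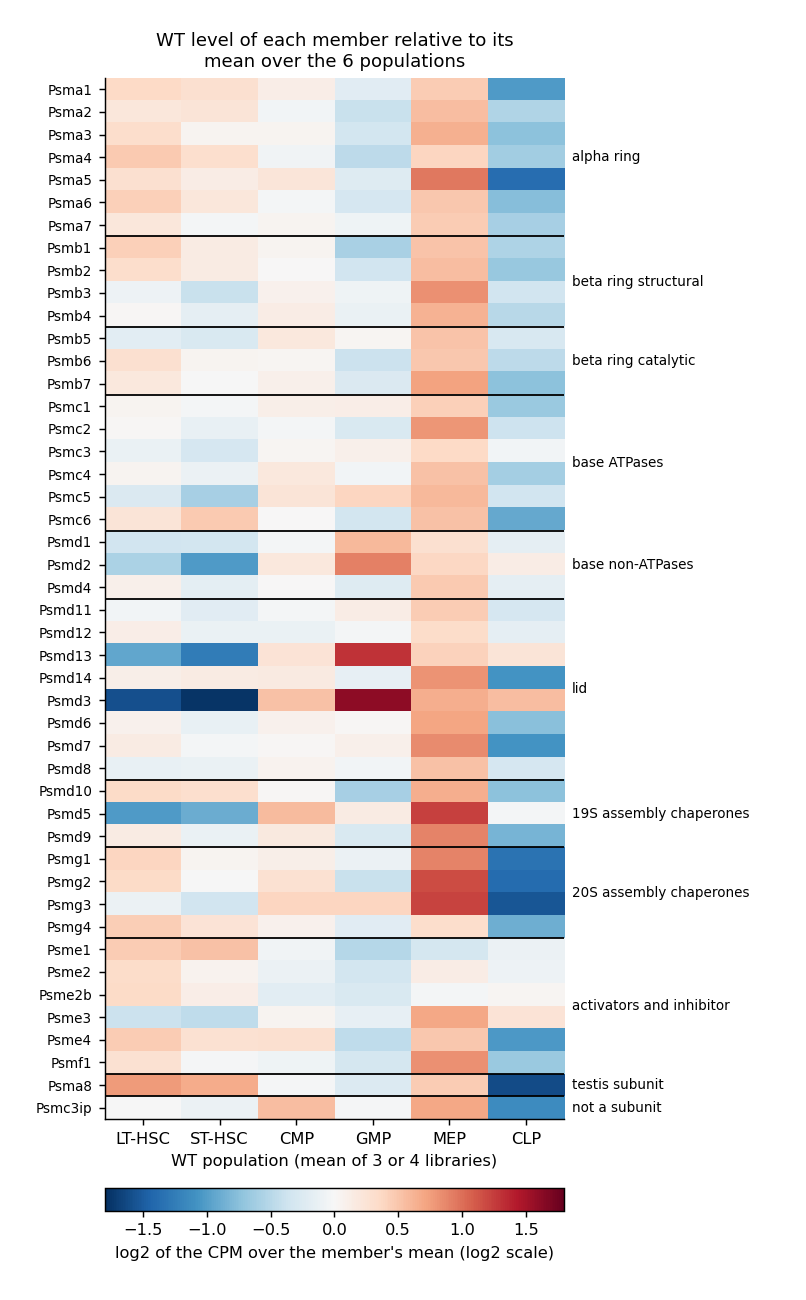
WT level of 46 members in 6 populations, each cell the log2 of the mean CPM minus the member's mean of these log2 values over the populations (colour scale, limited to 1.8 on either side), with members grouped by role on the y axis and Psmb11 left out because it is at 0. The MEP column is red for most rows and the CLP column blue, while Psmd3, Psmd13, Psmd2 and Psmd1 are highest in GMPs.

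The catalytic subunits followed the common pattern with small differences. Psmb5, the chymotrypsin-like subunit, was at 216, 205 and 259 CPM in WT LT-HSCs, 198, 232 and 208 in ST-HSCs, 306, 273, 323 and 278 in CMPs, 311, 239, 212 and 299 in GMPs, 416, 387, 349 and 325 in MEPs and 233, 173, 203 and 237 in CLPs. Psmb6, the caspase-like subunit, was at 388, 400.4 and 497 CPM in LT-HSCs, 342, 432 and 324 in ST-HSCs, 393, 343, 350.2 and 357 in CMPs, 312, 254, 213 and 297 in GMPs, 577, 513, 456 and 433 in MEPs and 268, 257, 279 and 214 in CLPs. Psmb7, the trypsin-like subunit, was at 270.4, 268 and 286 CPM in LT-HSCs, 262, 221 and 233 in ST-HSCs, 292, 217, 239.8 and 273 in CMPs, 206, 186, 201 and 206 in GMPs, 432, 401, 372 and 388 in MEPs and 121, 138, 149 and 165 in CLPs. For Psmb7 the MEP libraries lay above and the CLP libraries below all others listed, and for Psmb5 the CLP libraries overlapped with the LT-HSC libraries.

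In the libraries labelled Tet2-/- Psmb5 was at 185, 247, 328 and 160.3 CPM in LT-HSCs, 141, 206, 239 and 153 in ST-HSCs, 252, 310.1, 360.4 and 263 in CMPs, 218, 280.1, 302 and 311 in GMPs, 338, 475, 428 and 349 in MEPs and 122, 273, 135 and 238 in CLPs. Psmb6 was at 253, 364, 578 and 347 CPM in LT-HSCs, 277, 373, 466 and 339 in ST-HSCs, 337, 335, 434 and 422 in CMPs, 259, 283, 299 and 321 in GMPs, 475, 667, 546 and 542 in MEPs and 176, 221, 175 and 325 in CLPs. Psmb7 was at 179, 238, 312 and 209.9 CPM in LT-HSCs, 208, 248, 266 and 235 in ST-HSCs, 292, 296, 329 and 308 in CMPs, 206, 186, 214 and 239.7 in GMPs, 452, 482, 461 and 478 in MEPs and 100, 143, 141 and 196 in CLPs. None of the 3 was called between the labels in any population, and for Psmb7 the MEP libraries again lay above all others. In the LT-HSCs of the second table Psmb5 was at 109, 89.3 and 121 CPM in WT, 91.2, 139.8 and 155 in Sting-/- and 119, 193 and 218 in DKO. Psmb6 was at 483, 829 and 461 CPM in WT, 815, 749 and 893 in Sting-/- and 1026, 1168 and 742 in DKO. Psmb7 was at 73.8, 176 and 77.3 CPM in WT, 192, 192 and 167 in Sting-/- and 248, 199 and 229 in DKO. The DKO libraries lay above every WT library for Psmb7, and the labels overlapped for Psmb5 and Psmb6.

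As a description over the 46 libraries, which share populations and genotypes, each of the 46 members with counts was compared with the sum of the others. The median Pearson r was 0.79, with 33 of 46 above 0.5, and 0.52 after the mean of each group was taken off. Psma3, Psma5 and Psmb7 were highest at 0.95. The lowest were Psmd13 (-0.05), Psmd3 (0.03), Psmd2 (0.07), Psme1 (0.11) and Psmd5 (0.17). After the group means were taken off, r was 0.58 for Psme1, above the median, and 0 for Psmd13, 0.1 for Psmd3, 0.01 for Psmd2 and 0.05 for Psmd5.

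From WT LT-HSC to WT ST-HSC no member was called by edgeR's quasi-likelihood test with Benjamini-Hochberg adjustment (adjusted p under 0.05, used throughout), where 0.175% of all genes tested were. None had an unadjusted p under 0.05, where 8.85% of all genes did, and DESeq2 called 0 (4.16% of all genes). The median log2 fold change of the 46 members tested was -0.16, with 7 above 0, and that of all genes 0.00. The members with the smallest p were Psmd2 and Psmb3. Psmd2 was at 101, 70.6 and 83.1 CPM in LT-HSCs and 69.6, 50.6 and 65.7 CPM in ST-HSCs, a log2 fold change of -0.44 (SE 0.23, adjusted p = 0.593). Psmb3 was at 182, 235 and 263 CPM and 179.8, 189 and 183 CPM, a log2 fold change of -0.28 (SE 0.17, adjusted p = 0.69). The libraries overlapped for Psmb3 but not for Psmd2.

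From WT ST-HSC to WT CMP, 4 members rose and 1 fell of 46 tested (5 called, with a background of 6.31% of all genes called, 4.25% higher and 2.05% lower). The risers were Psmd3 and Psmd13 of the lid, Psmd2 of the base and Psmd5, a chaperone of base assembly, and Psme1 of PA28 fell. Psmd3 rose from 15, 7.48 and 12.9 CPM in ST-HSCs to 52.3, 61.4, 57.1 and 58.6 CPM in CMPs, a log2 fold change of 2.27 (SE 0.35, adjusted p = 0.000425). Psmd13 rose from 11.7, 25.8 and 13.3 to 48.3, 46.7, 41.6 and 54.8 CPM, a log2 fold change of 1.5 (SE 0.29, adjusted p = 0.0032). The groups did not overlap for either lid subunit. Psmd2 rose from 69.6, 50.6 and 65.7 to 133, 145, 144 and 152 CPM, a log2 fold change of 1.2 (SE 0.22, adjusted p = 0.00171). Psmd5 rose from 27, 84.3 and 45.2 to 118, 173, 163 and 116 CPM, a log2 fold change of 1.45 (SE 0.31, adjusted p = 0.00708). ST-HSC replicate 3 held the highest Psmd5 value of its group. Psme1 fell from 373, 404 and 426 to 265, 262, 268 and 263 CPM, a log2 fold change of -0.61 (SE 0.12, adjusted p = 0.00355). The other 41 members tested were not called, and the median of all 46 was 0.08 (0.05 without CMP replicate 2 and 0.17 without CMP replicate 3) against 0.00 for all genes, so the summed level hardly moved (ratio 1.02). Leaving out any 1 library kept the number of calls at 5, and with only the 2 groups in the fit 11 were called (18.4% of all genes). In the libraries labelled Tet2-/- the same step gave 1.02 for Psmd3 (adjusted p = 0.598) and 6 calls in all, with 3.96% of all genes called. Psmd13 shares 342 exon bases with Sirt3 on the other strand, and the libraries do not mark strand.

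From WT CMP to WT MEP, 16 of 46 members rose and none fell, where 8.9% of all genes were called (2.75% higher). With only the 2 groups in the fit 33 were called, with 27.5% of all genes. The median was 0.43 for the members, with 45 of 46 above 0, and -0.12 for all genes, and Psme1 was the 1 member below 0 (-0.29). Calls came from 8 of the subunit groups: 4 of 7 alpha subunits, 2 of 4 structural and 1 of 3 catalytic beta subunits, 2 of 6 base ATPases, 3 of 8 lid subunits, 1 of 3 base chaperones, 2 of 4 core chaperones and 1 of 6 activators and inhibitors. The 5 largest called changes were in Psmf1, Psmg2, Psmd7, Psmc2 and Psmg1. Psmf1, the proteasome inhibitor PI31, was at 76.7, 52.6, 66 and 44.3 CPM in CMPs and 103, 86.8, 166 and 91.5 CPM in MEPs, a log2 fold change of 0.86 (SE 0.22, adjusted p = 0.0191). Psmg2, a chaperone of alpha ring assembly, was at 167, 127, 146 and 132 and 286, 278, 255 and 243 CPM, a log2 fold change of 0.85 (SE 0.23, adjusted p = 0.022). The MEP libraries lay above the CMP libraries for both. Psmg1, the partner of Psmg2, was at 106, 58.1, 94.3 and 93.8 and 157, 147, 137 and 164 CPM, a log2 fold change of 0.74 (SE 0.19, adjusted p = 0.0153). Psmd7 of the lid was at 272, 244, 218 and 271 and 434, 426, 440.4 and 496 CPM, a log2 fold change of 0.8 (SE 0.18, adjusted p = 0.00785). Psmc2, a base ATPase, was at 224, 164, 186 and 194 and 358, 325, 339.7 and 345 CPM, a log2 fold change of 0.79 (SE 0.20, adjusted p = 0.0133). None of these 3 overlapped between the populations. Psmb2 of the beta ring had the smallest p, with 455, 383, 384 and 394 and 641, 617, 535 and 557 CPM and a log2 fold change of 0.5 (SE 0.10, adjusted p = 0.00198).

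Most of the 16 changes from CMP to MEP were small, and none reached 2-fold. Without CMP WT replicate 3 the number of calls was 10, and with each of the other libraries left out it stayed between 11 and 16. The share of all genes called in these fits is not given, so these counts are no result about the members. Psmf1 was no longer called without MEP replicate 4 (adjusted p = 0.0977), CMP replicate 5 (0.061) or CMP replicate 3 (0.0536). Psmg2 was no longer called without MEP replicate 2 (0.0619) or 3 (0.0521) or CMP replicate 3 (0.0596) or 5 (0.0558). Psmd6, Psmd9, Psmc6 and Psma6 lost their calls without 3, 4, 5 and 6 of the 8 libraries (adjusted p 0.0561 to 0.119), and the other 10, with Psmd7, Psmc2, Psmg1 and Psmb2 among them, stayed called in each case. In the libraries labelled Tet2-/- the same step gave 2 calls, Psmb7 and Psmg2, with 4.13% of all genes called. Same-numbered libraries of these 2 groups deviated together (r = 0.15 to 0.18), and with the replicate number as a block, a fit added after seeing the data, 6 were called (4.3% of all genes), Psma5, Psmb2, Psmb3, Psmb7, Psmd9 and Psmg2, all higher in MEPs. The ratio of the summed levels was 1.42, and 1.26 when levels were scaled by the plain total of counts.

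From WT CMP to WT GMP, 3 members rose and 2 fell of 46 tested (4.81% of all genes were called, 2.1% higher and 2.71% lower). With only the 2 groups in the fit 15 were called (26.1% of all genes), and DESeq2 called 9 (11%), while without the low-count filter 2 were called (2.34%). Psmd3, Psmd13 and Psmd2, which had risen from ST-HSC to CMP, were higher again, and Psmb1 and Psme1 were lower. Psmd3 was at 116, 141, 93.4 and 138 CPM in GMPs, a log2 fold change of 1.12 (SE 0.31, adjusted p = 0.0406). Psmd13 was at 105, 89.7, 84 and 118 CPM, a log2 fold change of 1.08 (SE 0.26, adjusted p = 0.0202). The CMP values of both stand above, and neither overlapped with GMPs. Psmd2 was at 211, 263, 209 and 267 CPM, a log2 fold change of 0.75 (SE 0.20, adjusted p = 0.0296). Psmb1, a structural beta subunit, was at 404, 441, 452 and 346 CPM in CMPs and 268, 252, 272 and 263 CPM in GMPs, a log2 fold change of -0.61 (SE 0.14, adjusted p = 0.0149). Psme1 was at 226, 186, 185 and 177 CPM in GMPs, a log2 fold change of -0.42 (SE 0.11, adjusted p = 0.0327). The median of the members was -0.20, with 11 above 0, or -0.31 without CMP replicate 3, and that of all genes 0.00. Both steps into and out of the CMP share the CMP libraries, so their values are not independent.

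Except for Psmb1, whose adjusted p was at most 0.0461, these calls were lost in some fits with 1 library left out. The number of calls was 4 without GMP replicate 4, 3 without GMP replicate 2 or CMP replicate 5, 2 without CMP replicate 2, CMP replicate 3 or GMP replicate 3, and 1 without CMP replicate 4 or GMP replicate 5. These counts are no result about the members, because the share of all genes called in the same fits is not given. Psmd3 was not called with any of the 8 libraries left out (0.0503 to 0.134), nor was Psmd2 without any CMP library or GMP replicate 3 or 5 (0.0679 to 0.11). Psmd13 was not called without CMP replicate 2, 3 or 4 or GMP replicate 2 or 5 (0.0609 to 0.0861), nor Psme1 without CMP replicate 4 or GMP replicate 3 or 5 (0.055 to 0.0739).

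From WT ST-HSC to WT CLP, 25 of 46 members fell and 4 rose, 29 called in all (63%), where 28.1% of all genes were called, 16.9% lower and 11.2% higher. With only the 2 groups in the fit 11 were called, with 15.6% of all genes, and at a fold of at least 2 the count was 15, with 24.5%. The median was -0.62 for the members, with 11 above 0, and -0.10 for all genes. All 7 alpha subunits and all 4 core chaperones were called lower, as were 2 of 4 structural and 2 of 3 catalytic beta subunits, 2 of 6 base ATPases, 3 of 8 lid subunits, 2 of 3 base chaperones and 2 of 6 activators and inhibitors, beside Psmc3ip. The largest falls among called members were in Psma5, Psmc6, Psmg2, Psmg1 and, level at -1.29, Psma1 and Psme4. Psma5 of the alpha ring was at 294, 361 and 397 CPM in ST-HSCs and 145, 123, 80.7 and 149 CPM in CLPs, a log2 fold change of -1.47 (SE 0.18, adjusted p = 6.26e-06). Psmc6, a base ATPase, was at 372, 379 and 340.0 and 169, 96.7, 143 and 144 CPM, a log2 fold change of -1.38 (SE 0.14, adjusted p = 5.97e-07). No CLP library reached an ST-HSC library in either. Psmg2 was at 107, 121 and 126 and 69.2, 34.9, 22 and 54.1 CPM, a log2 fold change of -1.38 (SE 0.24, adjusted p = 0.000282). Psmg1 was at 85, 89.5 and 80.1 and 49.6, 25.9, 26.6 and 28.2 CPM, a log2 fold change of -1.37 (SE 0.20, adjusted p = 4.1e-05). Psma1 was at 641, 564 and 667 and 312, 164, 259 and 271 CPM, a log2 fold change of -1.29 (SE 0.15, adjusted p = 2.86e-06). CLP replicate 2 was the highest CLP library for Psmg1 and for the summed level. Psme4 was at 55.7, 48.4 and 39 and 29, 20.7, 22.2 and 5.21 CPM, a log2 fold change of -1.29 (SE 0.34, adjusted p = 0.0081). Psma8 was at 20.8, 26.4 and 17.9 CPM in ST-HSCs and 0, 9.41, 0 and 8.45 CPM in CLPs, and it was not called (adjusted p = 0.159 by edgeR's test).

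The 4 members that rose were again Psmd3, Psmd13, Psmd2 and Psmd5. Psmd3 was at 94.3, 74.4, 40.0 and 25.6 CPM in CLPs, a log2 fold change of 2.32 (SE 0.36, adjusted p = 6.62e-05). Psmd13 was at 51.7, 47.2, 27 and 63.6 CPM, a log2 fold change of 1.51 (SE 0.29, adjusted p = 0.000677), and Psmd2 at 118, 113, 132 and 187 CPM, a log2 fold change of 1.17 (SE 0.22, adjusted p = 0.000439). All 3 lay above every ST-HSC library. Psmd5 was at 117, 91.8, 111 and 57.5 CPM and overlapped with ST-HSCs, a log2 fold change of 0.88 (SE 0.31, adjusted p = 0.0373), and it was no longer called without CLP replicate 2 (0.072), 3 (0.0545) or 4 (0.0804) or ST-HSC replicate 2 (0.183) or 5 (0.127). Of the members that fell, Psmb6 (0.107) and Psmc1 (0.0701) lost their calls without ST-HSC replicate 3, Psmd6 (0.059) without ST-HSC replicate 2, Psmg4 (0.0565) without ST-HSC replicate 5, and Psmc3ip without ST-HSC replicate 2 (0.107) or 5 (0.12) or CLP replicate 3 (0.092) or 5 (0.0825). The 5 members called from ST-HSC to CMP were all among these 29, with the ST-HSC libraries in both comparisons. These libraries are called CLP by their label. Beside Ighm, the B cell genes Cd79a (294 to 623 CPM) and Ms4a1 (8.16 to 171 CPM) were detected in each WT CLP library, with the lymphoid progenitor genes at the levels given above. By the study's methods CLPs were sorted as lineage-negative, Kit-positive and CD127-positive cells that are intermediate for Sca1. The lineage cocktail listed there for stem cells and multipotent progenitors holds the B cell antigen B220, and none is listed separately for CLPs. The part of these B cell genes in the result was not tested. Scaled by the plain total, the summed level in CLPs was 0.387 of that in ST-HSCs, and 0.664 with the scaling used here.

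Between the genotype labels, 5 calls were made, in CMPs (2.17% of the members tested), GMPs (2.17%) and MEPs (6.52%), and most calls over all genes were lower there (5.18% of 6.89% in CMPs, 5.49% of 6.56% in GMPs and 5.01% of 5.66% in MEPs). Psmd5 was lower in CMPs labelled Tet2-/-, Psmd3 in GMPs and MEPs and Psmd8 in MEPs, and Psmd11 was higher in MEPs. The fold changes of the other members were not called, and most of them were above 0 in CMPs and MEPs.

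**Figure D3:**
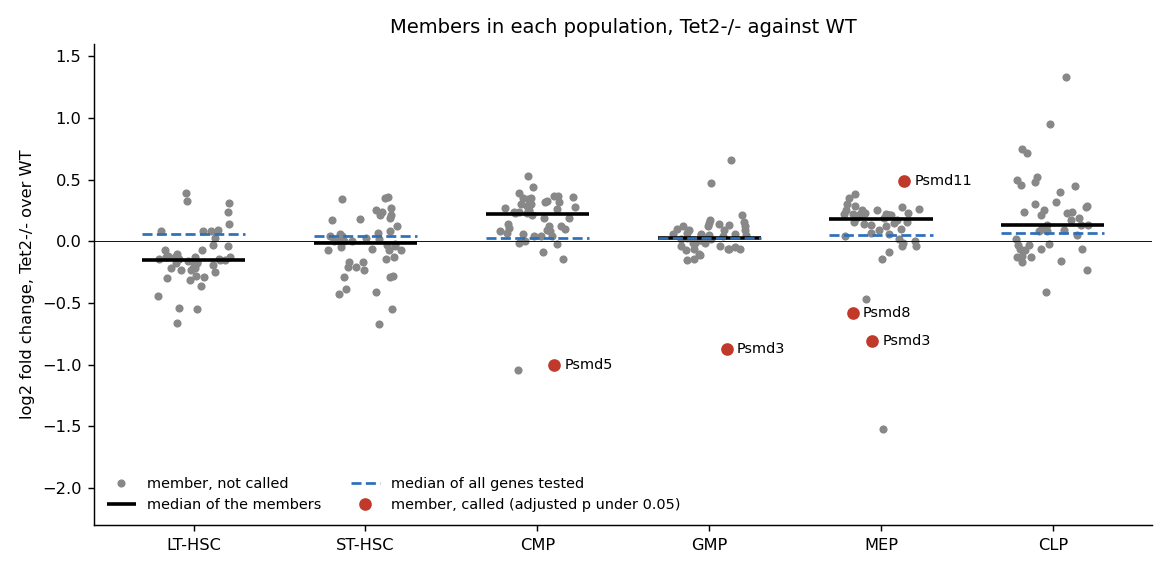
Log2 fold change of each member tested between libraries labelled Tet2-/- and WT (y axis) in 6 populations (x axis, points spread sideways for visibility), with members called at an adjusted p under 0.05 in red and named. The solid line is the median of the members and the dashed line that of all genes tested; the red points are Psmd5 in CMPs, Psmd3 in GMPs, and Psmd3, Psmd8 and Psmd11 in MEPs.

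In LT-HSCs 0 of 46 members were called, with 0.0245% of all genes called. By edgeR 2 members had an unadjusted p under 0.05 (5.16% of all genes), and DESeq2 called 0 (1.58%). The median was -0.15, with 10 above 0, and 0.06 for all genes. It was -0.31 without Tet2-/- replicate 4, -0.07 without replicate 2, -0.08 without replicate 5 and -0.09 without WT replicate 5. The mitochondrial share was 8.02% to 9.5% in WT and 8.82% to 14.5% in Tet2-/-, and its part was not tested. The members with the smallest p were Psmc4 and Psmd8. Psmc4, a base ATPase, was at 191, 154 and 229.5 CPM in WT and 134, 144, 126 and 76 CPM in Tet2-/-, a log2 fold change of -0.66 (SE 0.26, adjusted p = 0.87). Psmd8 was at 154, 146 and 183 and 102, 114, 145 and 78.5 CPM, a log2 fold change of -0.54 (SE 0.23, adjusted p = 0.928). The groups did not overlap in either, although neither passed the adjustment. The summed levels of the libraries labelled Tet2-/- ranged from 7013 to 11589 CPM and enclosed the WT range. In replicates 2, 3, 4 and 5 they were 7013, 9158, 11589 and 7661 CPM.

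In ST-HSCs 0 of 46 were called (0.0185% of all genes), with 0 at an unadjusted p under 0.05 (6.13% of all genes) and 0 by DESeq2 (2.45%). The median was -0.01, with 19 above 0, and 0.04 for all genes. Its sign changed with the libraries, from -0.13 without Tet2-/- replicate 4 and -0.06 without WT replicate 3 to 0.05 without Tet2-/- replicate 2. The mitochondrial share was 8.73% to 9.02% in WT and 10% to 13.1% in Tet2-/-, without overlap, and its part was not tested. Psmd1 and Psmd11 had the smallest p. Psmd1 was at 103, 105 and 102 CPM in WT and 70.4, 73, 95 and 62.5 CPM in Tet2-/-, a log2 fold change of -0.43 (SE 0.19, adjusted p = 0.842). Psmd11 was at 111, 105 and 112 and 119, 141, 141 and 140.5 CPM, a log2 fold change of 0.34 (SE 0.16, adjusted p = 0.861). The groups did not overlap in either. The summed levels in Tet2-/- replicates 2, 3, 4 and 5 were 6746, 8875, 10771 and 8148 CPM, the same order as in LT-HSCs.

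In CMPs 1 of 46 members was called, Psmd5, where 6.89% of all genes were called (5.18% lower). Psmd5 binds base ATPases and helps the base to assemble. It was at 118, 173, 163 and 116 CPM in WT and 82.7, 68.4, 51.7 and 84.2 CPM in Tet2-/-, a log2 fold change of -1.0 (SE 0.20, adjusted p = 0.0168). The libraries labelled Tet2-/- all lay below the WT libraries. The call was lost without WT replicate 3 (0.0533), WT replicate 4 (0.0593) or Tet2-/- replicate 3 (0.0525), in a fit of all 46 libraries (adjusted p = 0.328) and with a replicate block (adjusted p = 0.0936). The number of members called was 0 without WT replicate 3 or 4 and 2 without Tet2-/- replicate 3 or 5. Psmd3 was at 52.3, 61.4, 57.1 and 58.6 and 30.5, 40.4, 27.1 and 14.2 CPM without overlap, a log2 fold change of -1.04 (SE 0.27, adjusted p = 0.0512), and was not called. Psmd11 was at 116, 127, 137 and 112 and 157, 224, 156 and 176 CPM, also without overlap and not called, a log2 fold change of 0.53 (SE 0.14, adjusted p = 0.0608).

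Of the 46 members in CMPs, 39 had a fold change above 0 (52% of all genes did) and the median was 0.22, or 0.14 without WT replicate 3, with 0.03 for all genes. All 7 alpha subunits (0.14 to 0.30), all 4 structural beta subunits (0.04 to 0.12), all 4 core chaperones (0.23 to 0.36) and all 6 activators and inhibitors (0.08 to 0.37) were above 0, none of them called, and the lid ran from -1.04 to 0.53 with 6 of 8 above 0. By edgeR 19 members had an unadjusted p under 0.05 (41.3% of those tested, and 19.1% of all genes), and DESeq2 called 7 (13.3% of all genes). The summed level was 9236 CPM ± 540 in WT and 10516 ± 663 in Tet2-/- (SD, n = 4 each), with the lowest Tet2-/- library at 9900 and the highest WT library at 9911. Other genes differed beside it. The 6 MEP markers, all detected, summed to 922 to 2380 CPM in WT CMPs and 3760 to 7370 CPM in Tet2-/- CMPs, and 10 cycling genes to 1430 to 2120 and 2320 to 2520 CPM. Mitochondrial genes took 5.94% to 6.57% of the counts in WT CMPs and 7.85% to 8.37% in Tet2-/- CMPs, without overlap. The part of these in the result was not tested.

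In GMPs 1 of 46 members was called, with 6.56% of all genes called (5.49% lower), and DESeq2 called 2 (9.89%). Psmd3 was at 116, 141, 93.4 and 138 CPM in WT and 53.2, 71.1, 68.4 and 80.7 CPM in Tet2-/-, a log2 fold change of -0.87 (SE 0.15, adjusted p = 0.00464). Every Tet2-/- library lay below every WT library, and the call held with each library left out (adjusted p at most 0.0199), with 2 members called without Tet2-/- replicate 5. It was lost in a fit of all 46 libraries (-0.84, adjusted p = 1) and lay under 2-fold. Psme4, the PA200 activator, was at 27.6, 26.3, 30.6 and 30.5 and 52.8, 48.2, 53 and 32.7 CPM, a log2 fold change of 0.66 (SE 0.18, adjusted p = 0.0554), and was not called. The summed levels, 7546 to 8403 CPM in WT and 7773 to 9134 CPM in Tet2-/-, overlapped. The median was 0.03 for the members, with 30 above 0, and 0.03 for all genes, and it was -0.01 without Tet2-/- replicate 5, 0.01 without WT replicate 3 and 0.05 without WT replicate 4. The GMP marker list summed to 30800 to 42800 CPM in WT and 35800 to 44800 CPM in Tet2-/-, with the groups overlapping. The mitochondrial share was 3.64% to 4.6% in WT GMPs and 4.74% to 5.09% in Tet2-/- GMPs, and its part was not tested.

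In MEPs 1 member rose and 2 fell of 46 tested, with 5.66% of all genes called (0.656% higher and 5.01% lower), and DESeq2 called 6 (9.83%). Psmd3 was at 52, 56.9, 64.5 and 76.3 CPM in WT and 36.4, 37.7, 33.3 and 35.4 CPM in Tet2-/-, a log2 fold change of -0.81 (SE 0.14, adjusted p = 0.00865). Psmd8, a lid subunit, was at 258, 223, 278 and 267 and 207, 175, 162 and 148 CPM, a log2 fold change of -0.58 (SE 0.12, adjusted p = 0.0234). Psmd11, a lid subunit whose level is known to raise proteasome activity in embryonic stem cells, was at 167, 165, 178 and 185 and 257, 238, 276 and 213 CPM, a log2 fold change of 0.49 (SE 0.10, adjusted p = 0.0184). None of the 3 overlapped between the labels. Psmd5 was at 190.1, 222, 246 and 246 CPM in WT and 162, 63.9, 46.8 and 44.4 CPM in Tet2-/-, a log2 fold change of -1.52 (SE 0.39, adjusted p = 0.0574). It was lower in 4 of 4 libraries but not called, and Tet2-/- replicate 2 stood far above the other 3.

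The call of Psmd3 in MEPs held with each library left out (adjusted p at most 0.0319). In a fit of all 46 libraries none of the 3 was called (adjusted p = 0.983 for Psmd3, 0.178 for Psmd8 and 0.527 for Psmd11) and Psmd5 was (-1.51, adjusted p = 0.0172), with 1.97% of all genes called. With a replicate block Psmd3 stayed called (0.0435) and Psmd8 (0.0724) and Psmd11 (0.0827) did not. That of Psmd11 was lost without WT replicate 2 (0.0583), 3 (0.0572) or 4 (0.0575) or Tet2-/- replicate 2 (0.0534) or 4 (0.0626), and that of Psmd8 without WT replicate 2 (0.0727), 4 (0.0765) or 5 (0.0716) or Tet2-/- replicate 3 (0.067), 4 (0.0751) or 5 (0.0699). Calls numbered 1 without WT replicate 2, WT replicate 4 or Tet2-/- replicate 4. For each of the 3, and for Psmd5 in CMPs and Psmd3 in GMPs, the two-sided exact permutation test over libraries gave p = 0.0286, the smallest that 4 libraries against 4 allow. Groups of 4 that do not overlap always give this value, so it adds nothing to the lack of overlap. The summed levels were 12658 to 13569 CPM in WT and 13793 to 15603 CPM in Tet2-/-, without overlap. The median of the members was 0.18, with 36 above 0, and that of all genes 0.05. Over all genes 54.2% were above 0. All 7 alpha subunits, all 6 base ATPases and all 6 activators and inhibitors were above 0, but 2 of 4 structural beta subunits, 2 of 4 core chaperones and 5 of 8 lid subunits were, and 15 members had an unadjusted p under 0.05 (32.6% of those tested, and 16.4% of all genes). The 5 haemoglobin and haem synthesis markers of erythroid cells summed to 154 to 434 CPM in WT MEPs and 80.3 to 107 CPM in Tet2-/- MEPs, and the mitochondrial share was 6.85% to 9.18% and 8.96% to 9.74%. The part of these in the result was not tested.

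**Figure D4:**
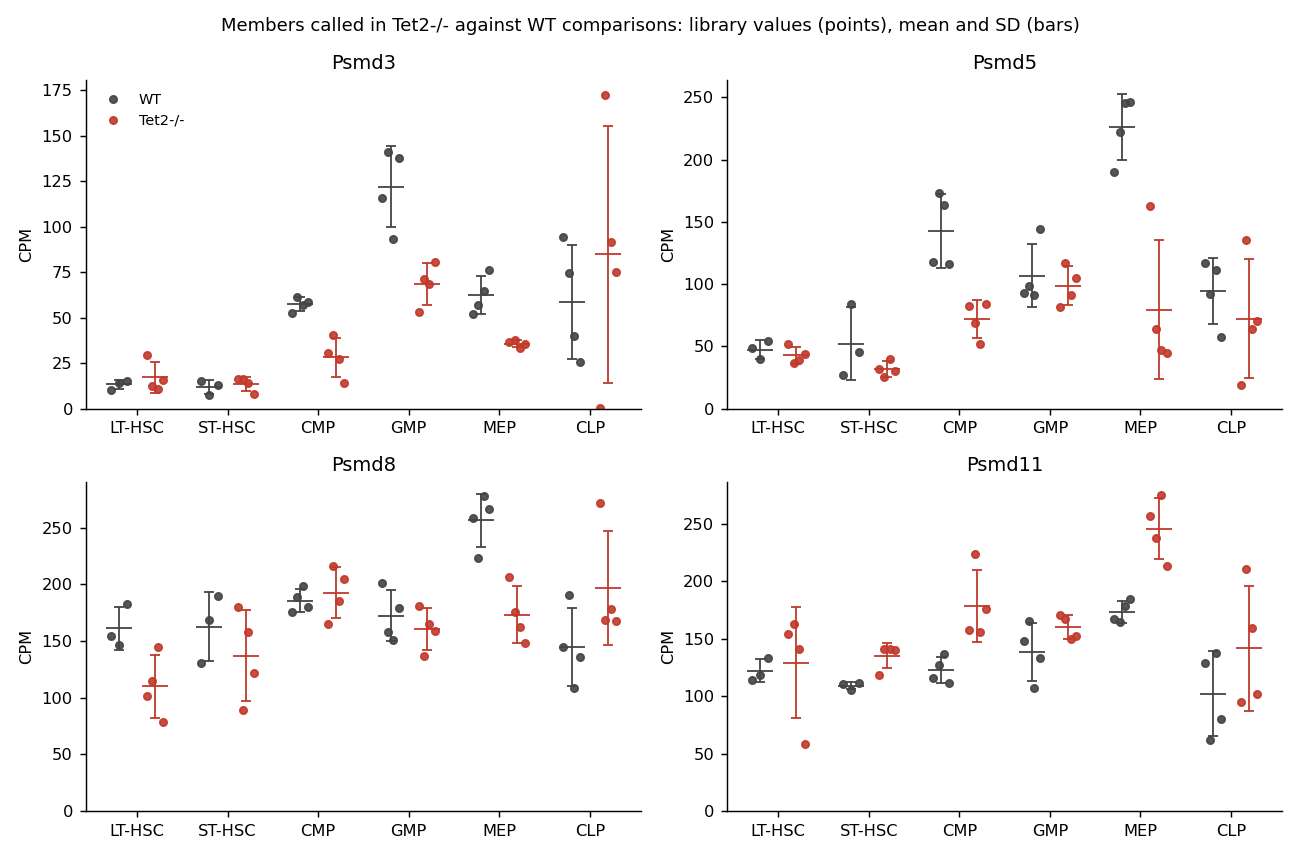
CPM (y axis) of Psmd3, Psmd5, Psmd8 and Psmd11 in each library (points) by population (x axis) and genotype label, with mean and SD as bars. Psmd3 separates the labels in CMPs, GMPs and MEPs and Psmd5 in CMPs and MEPs, while in LT-HSCs and ST-HSCs the labels overlap for Psmd3 and Psmd5.

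In CLPs 0 of 45 members tested were called, with 0.00766% of all genes called. By edgeR 1 member had an unadjusted p under 0.05 (3.65% of all genes) and DESeq2 called 1 (2.7%). In a fit of all 46 libraries, whose groups share 1 estimate of the spread, 3 members were called higher (7.38% of all genes called), Psmd14 (0.72, adjusted p = 0.0068), Psme4 (1.33, adjusted p = 0.00699) and Psmg4 (0.96, adjusted p = 0.0315). The median was 0.13, with 31 above 0, or 0.21 without WT replicate 2, and 0.07 for all genes. The mitochondrial share was 2.41% to 4.58% in WT and 12.5%, 7.82%, 3.11% and 4.23% in Tet2-/-, and its part was not tested. Psmd14, the deubiquitinase of the lid, was at 106, 109.8, 150.4 and 98.4 CPM in WT and 190.0, 200.1, 184 and 218 CPM in Tet2-/-, a log2 fold change of 0.72 (SE 0.24, adjusted p = 1). Psme4 was at 29, 20.7, 22.2 and 5.21 and 77.7, 25.5, 42.9 and 52.4 CPM, a log2 fold change of 1.33 (SE 0.61, adjusted p = 1). Psmd14 did not overlap between the labels and Psme4 did. Psmd3 ran from 0.08 to 172 CPM over the 4 libraries labelled Tet2-/-. The summed levels, 5390 to 7129 CPM in WT and 5937 to 7713 CPM in Tet2-/-, overlapped. Their ratio was 1.11, and 1.55 when scaled by the plain total, where Ighm differed in its mean between the labels, and its part was not tested.

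Whether the genotype difference itself differed between populations was tested with 5 interaction terms in one fit of the 46 libraries. No member was called, where 2.65% of all genes were, and DESeq2 called 0 (6.4% of all genes). By edgeR's test Psmd8 (adjusted p = 0.155) and Psmd14 (adjusted p = 0.19) were the 2 members with an unadjusted p under 0.05 (14% of all genes). Psmd5 had an adjusted p of 0.464. The decreases of Psmd3 and Psmd5 in some populations are therefore not shown to differ from those in others.

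In the second table the LT-HSC libraries labelled DKO had the highest summed level, 16444 CPM ± 1132, after 13538 ± 713 in Sting-/- and 10459 ± 2538 in WT (SD, n = 3 each). The WT libraries held 9010, 13389 and 8977 CPM, the Sting-/- libraries 12846, 13498 and 14270 and the DKO libraries 17726, 15580 and 16025. All DKO libraries lay above all others, and WT replicate 2 lay among the Sting-/- libraries. These libraries were sparse. Their highest pairwise correlation was 0.522, where that of the first table was 0.963, and single genes such as Sting read 0 counts in one library and over 1000 in another of the same label.

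No member was called between Sting-/- and WT (46 tested, 0.00915% of all genes called), with 4 at an unadjusted p under 0.05 (5.05% of all genes) and 0 by DESeq2 (4.16%). The median was 0.32, with 34 above 0, or 0.50 without WT replicate 2, and 0.00 for all genes. Psmb3, a structural beta subunit, was at 137, 243 and 152 CPM in WT and 344, 343 and 424 CPM in Sting-/-, a log2 fold change of 1.03 (SE 0.30, adjusted p = 0.919). Psme1 was at 369, 394 and 391 and 724, 529.8 and 688 CPM, a log2 fold change of 0.73 (SE 0.23, adjusted p = 0.919). Neither overlapped between the labels.

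Between DKO and WT, Psmb3 rose and Psmd5 and Psmd8 fell (3 of 46, with 1.13% of all genes called, 0.22% higher and 0.906% lower). Psmd5 was at 221, 296 and 208 CPM in WT, 217, 127 and 67.6 CPM in Sting-/- and 1.73, 2.65 and 5.59 CPM in DKO. Its log2 fold change was -6.18 (SE 0.73, adjusted p = 0.0023) against WT. The DKO libraries were nearly without Psmd5 reads, and the call held with each library left out (adjusted p at most 0.0173). Psmd8 was at 150.0, 406 and 219 CPM in WT, 310.0, 303 and 291 CPM in Sting-/- and 54.8, 37.1 and 75.8 CPM in DKO, with a log2 fold change of -2.2 (SE 0.45, adjusted p = 0.0465) against WT. Psmb3 was at 562, 619 and 499 CPM in DKO, with a log2 fold change of 1.67 (SE 0.30, adjusted p = 0.0287). None of the 3 overlapped with WT. By edgeR 23 members had an unadjusted p under 0.05 (14.6% of all genes) and DESeq2 called 7 (12.7%), the median was 0.82, with 38 above 0, and that of all genes -0.07.

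Between DKO and Sting-/-, Psmd5 and Psmd8 fell (2 of 46, with 0.686% of all genes called, 0.659% lower), with a log2 fold change of -5.34 (SE 0.70, adjusted p = 0.00664) and a log2 fold change of -2.4 (SE 0.45, adjusted p = 0.0462). The DKO libraries are shared with the comparison with WT. The median was 0.37, with 36 above 0, and 0.02 for all genes. With any 1 library left out the number of calls was 1, apart from 2 against WT without WT replicate 2. Psmd8 lost its calls with any 1 library left out (adjusted p 0.0505 to 0.167 against WT and 0.0916 to 0.166 against Sting-/-), and Psmb3 lost its call without WT replicate 1 (0.121) or 3 (0.137) or any DKO library (0.0618 to 0.118). Without the 3 libraries labelled as lacking Sting that held Sting counts, Psmd5 was still called against WT (-6.75, adjusted p = 0.012) and not against Sting-/- (-5.81, adjusted p = 0.0684), in a fit with 3 residual degrees of freedom. Psmd5 is at chr2:34849734-34874968 and Psmd8 at chr7:29174188-29180701 (mm10), and neither shares exon bases with another gene. The part of sex in the comparisons with WT was not tested. In the LT-HSCs of the first table, scaled separately, Psmd5 was at 48.2, 39.6 and 54.4 CPM in WT and 51.6, 36.5, 39.1 and 44 CPM in Tet2-/-, overlapping.

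**Figure D5:**
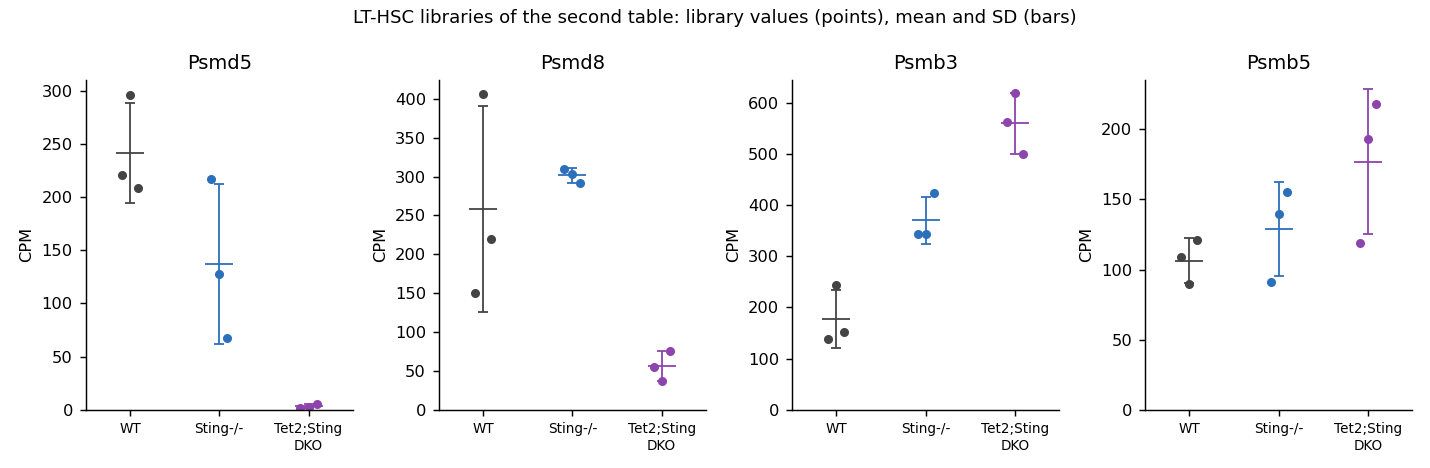
CPM (y axis) of Psmd5, Psmd8, Psmb3 and the catalytic subunit Psmb5 in the 9 LT-HSC libraries of the second table (points), by genotype label (x axis), with mean and SD as bars. Psmd5 is at 1.73 to 5.59 CPM in the DKO libraries and Psmd8 lies below its other groups there, while Psmb3 lies above.

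The immunoproteasome subunits, which replace the catalytic members, went the other way at the MEP step. Psmb8, Psmb9 and Psmb10 were all called lower in WT MEPs than in WT CMPs, with log2 fold changes of -2.15, -1.38 and -0.82. Psmb8 fell from 541 CPM ± 46.7 to 125 ± 13.1 (SD, n = 4 each). Per exon length, the ratio of Psmb8 to Psmb5 was 0.242 ± 0.00622 in WT MEPs (SD, n = 4) and between 1.16 and 1.95 on average in the other WT populations. Between the genotype labels 1 of the 3 was called in 1 population, Psmb10 in GMPs (0.43, SE 0.11, adjusted p = 0.043).

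Other genes of the pathway were taken from a list of 30 partners, ubiquitin receptors, ubiquitin genes, activating enzymes and regulators. Between the genotype labels none was called in LT-HSCs, ST-HSCs or CLPs, 1 fell in CMPs, 2 fell in GMPs and 1 rose and 1 fell in MEPs, where 6.89%, 6.56% and 5.66% of all genes were called. Ngly1, the glycanase that activates Nrf1, fell in all 3 of those populations, by 0.85 in CMPs (adjusted p = 0.0301), 0.90 in GMPs (0.00772) and 1.33 in MEPs (0.00216) on the log2 scale. The ubiquilin Ubqln1 fell in GMPs (-0.98, adjusted p = 0.0254), and the activating enzyme Uba1 rose in MEPs (0.41, adjusted p = 0.0355). In the second table Adrm1, a ubiquitin receptor of the base, was lower in DKO than in WT (-3.49, adjusted p = 0.0041) and than in Sting-/- (-4.09, adjusted p = 0.00233). From WT CMP to WT MEP 4 of the 30 rose and 1 fell (8.9% of all genes called), and from WT ST-HSC to WT CLP 7 rose and 11 fell (28.1%).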

How the data were processed

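Messenger RNA of sorted mouse bone marrow cells was sequenced in 55 libraries, 46 in the first table and 9 in the second. Reads were trimmed (Trim Galore) and aligned to mm10 (HISAT2) by the authors, who deposited raw counts per gene (the program that counted is not given in the sources used here). The submitters' processing notes also name mm9. Copies that share reads (Psme2 and Psme2b) are uncertain, and the kit did not mark strand, so genes that overlap on the other strand share counts. Each of the 55 columns matched 1 sample, and 2 broken lines of the second table were not used.

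The 47 members, the lists of other genes and the comparisons were chosen with earlier results of these data known. Every comparison was fitted on all genes with edgeR 4.0.16 (R 4.3.3) and its quasi-likelihood test, with filterByExpr, TMM scaling and Benjamini-Hochberg adjustment over all genes tested, with calls made below an adjusted p of 0.05 at any fold. Tet2-/- was compared with WT in a fit of the libraries of 1 population, WT steps in a fit of the 22 WT libraries, the interaction in a fit of 46 libraries and the second table in a fit of 9. The tables were never joined. Levels are TMM-scaled CPM (counts per 1000000), divided by the second table's exon length in kb where genes are compared. Sums and medians over members carry no p-value. For single members a two-sided exact permutation test of log2 CPM over libraries was added. Its smallest p is 0.0286 with 4 libraries against 4 and 0.1 with 3 against 3, so it could not pass 0.05 in the second table. The functions were tested on simulated data. Values in every library are given for Psmb5, Psmb6 and Psmb7, for up to 5 called members with the largest fold change in each direction, for the 2 members with the smallest p where none was called, and for the members highest and lowest per exon length in each subcomplex. Psmd3, Psmd5, Psmd11 and Psme4 are also named where they were not called, chosen after their values were seen. The alternatives were DESeq2 1.42.0, a fold of at least 2, RLE scaling, no filter on low counts, other sets of libraries, a replicate block and leaving out each library, and scaling by the plain total and leaving out the top 5 members for the summed level. The exclusion of libraries with Sting counts, the vM21 lengths and the replicate block from CMP to MEP in Tet2-/- were chosen after seeing the data.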

Additional observations from a re-analysis of the deposited data

Results flagged for a closer look

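Among 360 groups of 4 libraries (36 measures in the first table, 35 of them named members), 16 held 1 library whose gap to the nearest of the others was over the 95% critical share of Dixon's test for the range of the group. Chance gives about 5% of such groups, or 18. In WT CLPs replicate 2 was the highest library for 5 alpha, beta or chaperone members: Psma2 at 503 CPM (others 304 to 321), Psma6 at 299 CPM (165 to 180), Psma7 at 316 CPM (217 to 227), Psmb1 at 363 CPM (228 to 251) and Psmg1 at 49.6 CPM (25.9 to 28.2). In CLPs labelled Tet2-/- replicate 2 was low for Psmd13 at 29.4 CPM (66.3 to 67.6) and high for Psmd8 at 272 CPM (168 to 178), and replicate 3 was low for Psme1 at 195 CPM (308 to 319). In ST-HSCs labelled Tet2-/- replicate 2 was low for Psmc2 at 139 CPM (196 to 201) and Psmd11 at 119 CPM (140.5 to 141), and replicate 4 was low for Psmd2 at 48.1 CPM (60.2 to 62).

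In CMPs, WT replicate 2 stood apart for Psmb2 at 455 CPM (383 to 394) and Tet2-/- replicate 3 for Psma5 at 361 CPM (446 to 457). In GMPs, WT replicate 5 stood apart for Psmd5 at 145 CPM (91.5 to 98.4). In MEPs, WT replicate 3 stood apart for Psmb1 at 728 CPM (499 to 534), and Tet2-/- replicate 2 for Psmd5 at 162 CPM (44.4 to 63.9).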

How the results depend on the processing

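No called member changed direction under any alternative. Over the alternatives other than leaving out 1 library, a called member stayed called in 299 cases and was no longer called in 81. With DESeq2 7 members were called between the genotype labels in CMPs (main test 1), 2 in GMPs (1), 6 in MEPs (3) and 1 in CLPs (0), where it called 13.3%, 9.89%, 9.83% and 2.7% of all genes, then 9 from WT CMP to GMP (5, with 11% of all genes) and 7 between DKO and WT (3, with 12.7%). With a fold of at least 2 none was called in GMPs or MEPs between the labels and 2 from WT CMP to GMP. At that fold none of 16 was called from CMP to MEP and 15 of 29 from ST-HSC to CLP. The share of all genes at this fold is given above for ST-HSC to CLP only. The other counts at this fold are therefore no result about the members. With all 46 libraries in one fit 0 were called between the labels in CMPs or GMPs, while MEPs had 1 and CLPs 3, where 1.34%, 1.01%, 1.97% and 7.38% of all genes were called. With only the 2 groups in the fit 11 were called from WT ST-HSC to CMP, 11 to CLP, 15 from CMP to GMP and 33 from CMP to MEP, where 18.4%, 15.6%, 26.1% and 27.5% of all genes were called. Without the low-count filter 2 were called from CMP to GMP, and with the Tet2-/- libraries in place of WT 2 from CMP to MEP, or 6 with a replicate block. The causes were not tested. Without the 3 libraries labelled as lacking Sting that held its counts, 1 was called between DKO and WT and 0 between DKO and Sting-/-. The share of all genes called in that fit is not given, so these 2 counts are no result about the members.

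Leaving out each library in turn gave 0 to 2 calls in CMPs, 1 to 2 in GMPs and 1 to 3 in MEPs between the labels, 1 to 4 from CMP to GMP, 10 to 16 from CMP to MEP, 1 to 2 between DKO and WT and 1 between DKO and Sting-/-. The share of all genes called in these fits is not given, so such counts, here and above, are no result about the members. The labels do not say whether a replicate number marks 1 mouse, and the criterion for pairing, every pair of 2 groups over 0.1, was met in none of the comparisons between genotypes or WT populations and, of the Tet2-/- populations, by CMP and MEP (0.15 to 0.18). Deviations from the group means of same-numbered libraries correlated at -0.06 to 0.12 over 22 pairs across genotypes, with 3 pairs over 0.1, at 0 to 0.18 over 17 pairs across the WT steps, with 7 over 0.1, and at up to 0.25 over 60 pairs across Tet2-/- populations, with 14 over 0.1. With a replicate block 0 members were called in CMPs, 1 in MEPs, 1 between DKO and WT and 1 between DKO and Sting-/-. The other counts with this block stayed within 1.5 times the main count. The share of all genes called in these blocked fits is not given, so their counts are no result about the members. Scaled by the plain total, the ratio of summed levels was 1.55 between the labels in CLPs (1.11 in the main scaling), 0.387 from ST-HSC to CLP (0.664) and 1.26 from CMP to MEP (1.42), and the median from ST-HSC to CLP was -0.48 with RLE scaling and -0.50 with DESeq2 (-0.62). Psmb11 throughout and Psma8 between the labels in CLPs had too few counts to be tested.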
